A study of Homo sapiens with 12 samples.

Results

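The 56 genes described here encode the proteins that copy the genome and that open the gate from G1 into S phase. They were taken by gene symbol from the 60603 genes of the deposited count table. No rule on their values was used, but earlier results of these data were known when they were chosen. By role they comprise 14 genes of origin licensing, 8 of origin firing, 21 of the replication fork, 4 of nucleotide supply, and 9 E2F factors and G1/S regulators. All 56 passed the filter on low counts, and their counts ranged from 25 (POLE2) to 8813 (RRM2) in a single library.

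The libraries were made from poly(A) RNA of T24, an established human bladder carcinoma line. They form 4 groups of 3: WT cells with no treatment, WT cells with 5-Ad-IAA, NS1 cells with no treatment, and NS1 cells with 5-Ad-IAA. The series concerns AlissAID, a degron method in which a binding protein carries an untagged cellular protein to an auxin-dependent ubiquitin ligase, and 5-Ad-IAA is an auxin analog that serves as its inducer. All groups share the T24 background and the culture medium. The labels do not spell out NS1, whether that line is 1 clone, or whether the WT cells carry any component of the degron system, and the dose and duration of treatment are not used here. The question the design poses is whether these transcripts change with the inducer in NS1 cells, in WT cells, and between the lines.

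In G1, the origin recognition complex (the ORC proteins), CDC6 and CDT1 load the ring-shaped MCM2 to MCM7 helicase on DNA, and geminin (GMNN) blocks reloading later in the cycle. At the start of S phase the kinase CDC7 with its activator DBF4, together with MCM10, CDC45 and the GINS complex, turns the loaded ring into a running helicase. The fork then needs primase, the polymerases alpha, delta and epsilon, the sliding clamp PCNA and its RFC loader, the single-strand binding complex RPA, and the flap nuclease and ligase that join Okazaki fragments. E2F transcription factors, held in check by the pocket proteins of the RB family, drive many of these genes at the G1/S boundary, and in tumour lines their transcript levels are in common use as a readout of cycling cells.

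The libraries held from 10593934 to 20266996 counts. Replicate 1 stood apart. In treated NS1 cells the 56 genes summed to 1962 CPM (counts per 1000000 of the library total after TMM scaling) in replicate 1, against 2539.5 and 2503 CPM in replicates 2 and 3. In untreated NS1 cells the sums were 3290.1, 3652 and 3681 CPM, again lowest in replicate 1. In WT cells replicate 1 was instead the highest, at 4699 CPM against 4170.5 and 4283 CPM untreated, and at 4827 CPM against 4221 and 4207 CPM with the inducer. Counts of genes called are therefore also given without replicate 1. Keratins KRT7, KRT8 and KRT18 were at no less than 571.8 CPM in any library, EPCAM was at most 4.50 CPM, and UPK3A and DCN had no count in any library. PTPRC reached at most 1 count. The epithelial keratins were thus high, whereas the uroplakins UPK1A, UPK1B and UPK3A were absent or near 0. The 6 luminal markers summed to between 148 and 213 CPM in treated NS1 cells and to between 63.7 and 128 CPM in the other groups, and their part in the results was not tested. Leukocyte, endothelial and fibroblast markers summed to at most 2.71, 4.07 and 17.5 CPM, and the last was reached in treated NS1 cells, through PDGFRB. These are bulk samples, in which fewer cells in S phase and less RNA per cell cannot be told apart. Nothing in the labels says that replicates came from separate cultures, so p-values measure the spread between these samples, which may be technical.

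To show what the genes share outside the measured values, promoters were read from RefSeq (GRCh38.p14), 250 bases before to 50 after each start, for 48 of the 56 genes. CCNE2, E2F8, GINS4, MCM4, MCM5, POLD3, RPA2 and RPA3 had no entry. Each was searched on both strands for 3 kinds of word, with overlapping matches allowed: an E2F-type word (TTTGGCGC, TTTCCCGC, TTTCGCGC or TTTGCCGC), the CHR word TTTGAA found in many mitotic promoters, and the CCAAT box (CCAAT). An E2F-type word stood in 26 of the 48 genes (54.2%), against 3.99% of the 27305 genes in the table and 2 of 21 mitosis genes (9.52%). By window of this length the shares were 43.5% of 62 for the members, 3.31% of 35116 for all and 4.94% of 15957 for the genes tested here. The CHR word was in 3 of the 48 (6.25%), against 18.2% of all genes and 16 of 21 mitosis genes (76.2%). By window it was in 4.84% for the members, 15.2% for all and 10.5% for the genes tested. A CCAAT box was in 30 of the 48 (62.5%), against 39.7% of all genes. By role, the E2F-type word was in 8 of 12 licensing genes, 4 of 7 firing genes, 8 of 18 fork genes, 1 of 4 nucleotide genes and 5 of 7 E2F and G1/S genes. A match is a run of letters, not a shown binding site.

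The stretches below carry an E2F-type word before the start and come from the gene with the lowest p in its role, among genes with such a word, for the inducer effect in NS1 cells. This set was chosen after the values were seen. Capitals mark the word, on either strand, and each stretch is written 5′ to 3′ along the gene.
MCM7 distal (chr7:100101567-100101594, minus strand): agctcggaccGCGGGAAAcccggcgcct
MCM7 proximal (chr7:100101398-100101416, minus strand): gggggcgacgTTTCGCGCc
GINS2 (chr16:85688968-85688995, minus strand): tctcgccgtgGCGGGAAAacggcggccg
POLA1 (chrX:24693771-24693798, plus strand): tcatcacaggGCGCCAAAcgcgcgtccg
TYMS (chr18:657604-657631, plus strand): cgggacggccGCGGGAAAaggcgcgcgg
CDC25A (chr3:48188444-48188471, minus strand): gtggattccgTTTGGCGCcaactaggaa
The words begin 187 and 9 bases before the start in MCM7, 31 in GINS2, 137 in POLA1, 39 in TYMS and 44 in CDC25A. GINS2, TYMS and the distal MCM7 stretch hold the same word, TTTCCCGC, read on the other strand.

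RRM1 and E2F7, the genes with the lowest p in the nucleotide role and in the E2F and G1/S role, have no E2F-type word in the window. Their upstream stretches clear of annotated exons are printed for contrast, with CCAAT and CHR words in capitals.
RRM1 (chr11:4094435-4094684, plus strand): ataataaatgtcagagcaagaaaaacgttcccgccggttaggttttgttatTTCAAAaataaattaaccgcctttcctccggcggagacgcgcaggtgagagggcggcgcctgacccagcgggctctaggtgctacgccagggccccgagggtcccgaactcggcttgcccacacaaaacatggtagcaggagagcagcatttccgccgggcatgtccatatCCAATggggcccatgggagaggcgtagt
E2F7 (chr12:77065581-77065819, minus strand): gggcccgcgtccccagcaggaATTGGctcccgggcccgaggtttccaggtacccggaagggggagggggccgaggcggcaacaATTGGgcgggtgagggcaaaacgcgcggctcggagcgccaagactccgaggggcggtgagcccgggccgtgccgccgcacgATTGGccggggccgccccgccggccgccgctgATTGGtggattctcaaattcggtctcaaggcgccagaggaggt
The E2F7 stretch holds 4 CCAAT boxes, all on the other strand, and the RRM1 stretch holds 1 CCAAT box and 1 CHR word. The upstream stretches clear of exons of CDC45 and PRIM2, which had the lowest p in the firing and fork roles, hold none of the 3 kinds of word and are not printed. The CDC45 stretch is 68 bases long and the PRIM2 stretch 250. A whole window of CDC45 holds up to 4 CCAAT boxes.

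With the inducer, NS1 cells had lower levels of the replication genes across every role. In the NS1 comparison 30 of the 56 genes passed the test (edgeR's quasi-likelihood test, adjusted p under 0.05 over 17775 genes), all of them lower, whereas 3.39% of all genes tested were called lower and 2.76% higher. All 56 log2 fold changes were below 0, with a median of -0.62 and a range from -0.91 (MCM10) to -0.10 (ORC3), beside a median of 0.0055 over all genes tested. In 47 of the 56 genes every treated library lay below every untreated one (14% of all genes tested). In 3 of 3 same-numbered pairs 52 were lower, a count for which the share of all genes was not worked out. The counts of genes called lower were 7 of 14 in licensing, 4 of 8 in firing, 13 of 21 at the fork, 4 of 4 in nucleotide supply and 2 of 9 among E2F and G1/S genes. The medians by role lay close together, at -0.64, -0.64, -0.60, -0.69 and -0.66 in that order, and differences between roles were not tested.

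The count of genes called depended on how replicates entered the fit. With replicate numbers blocked separately in NS1 and in WT (the block within each line), 50 of the 56 were called lower (12.8% of all genes). Whether the numbers pair the libraries of a line, beyond a shared difference of replicate 1, was not tested. Without replicate 1, 37 were called, with a median of -0.54 (5.22% of all genes called lower): GINS1 and RFC2 lost the call, and ORC1, ORC6, MCM5, MCM6, GINS2, PCNA, RPA1, CLSPN and CCNE2 gained it. Without replicate 2 and without replicate 3, edgeR called no gene at all, though 42 of the 56 had an unadjusted p under 0.05 in each of those fits and their medians were -0.68 and -0.65. The share of all genes at that p in those fits is not given here. With all 12 libraries it was 3689 of 17775 genes, beside 48 of the 56. Leaving out 1 library at a time left fewer called in each case: 18, 10 and 11 without untreated replicate 1, 2 or 3, and 18, 18 and 12 without treated replicate 1, 2 or 3. In those fits 3.22%, 2.54% and 2.51%, and 6.54%, 3.03% and 2.22%, of all genes were called in either direction. CDC45, E2F7, MCM7, POLD3, PRIM2, RRM1 and TYMS were called in each of the 6 single-library omissions. CDT1, GMNN, MCM4, POLD1, RFC2 and RFC5 were called in none of them.

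**Figure D1:**
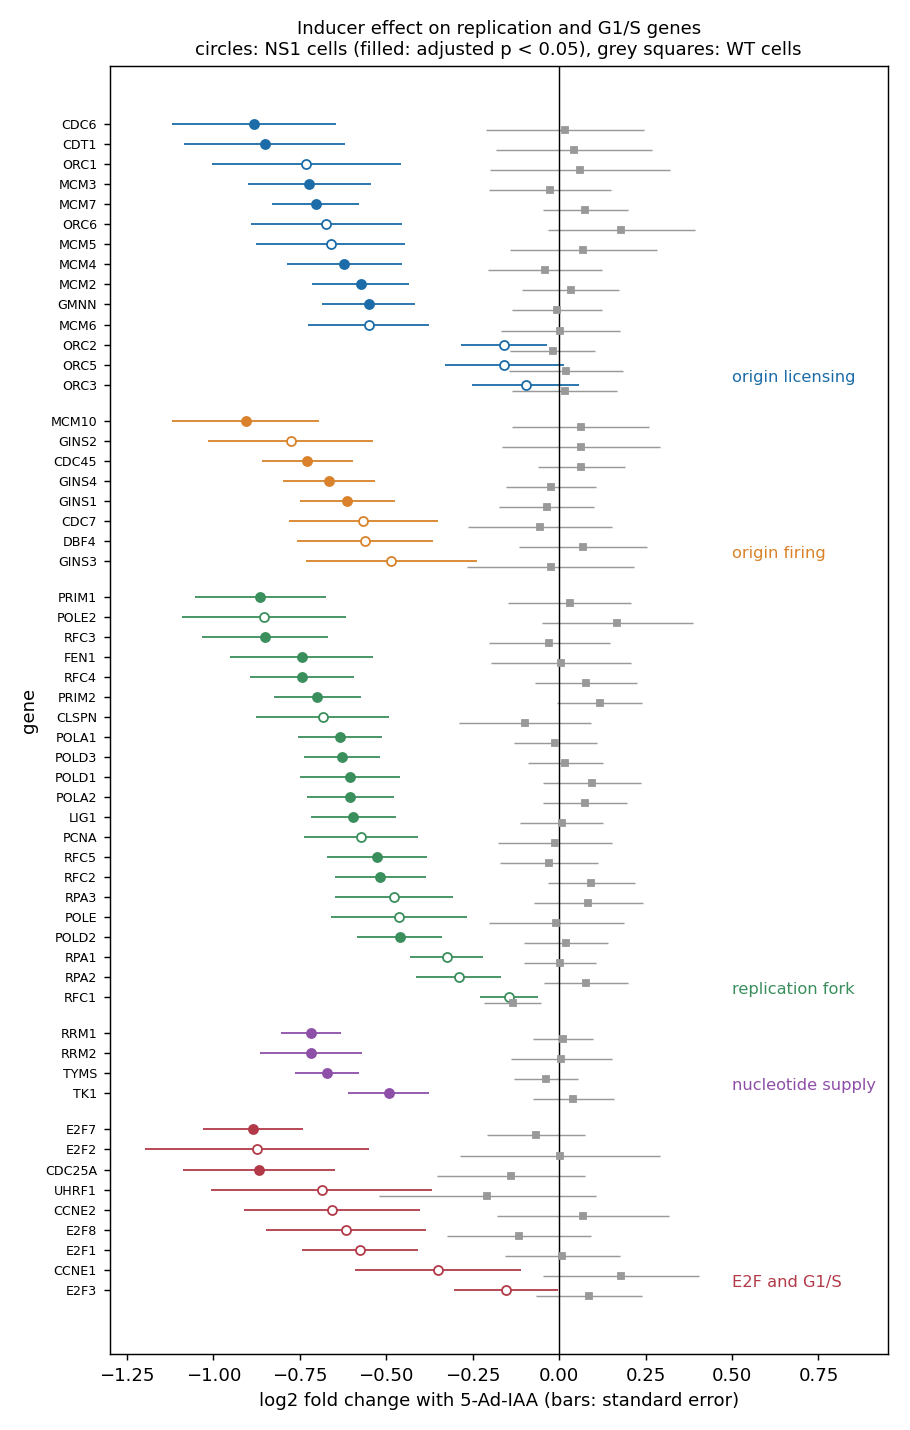
Log2 fold change with 5-Ad-IAA (x axis) for each of the 56 genes (y axis, grouped by role). Circles with standard error bars are NS1 cells, filled where the adjusted p was under 0.05, and grey squares are WT cells. The NS1 circles all lie left of 0, from -0.91 (MCM10) to -0.10 (ORC3), and the WT squares lie between -0.21 (UHRF1) and 0.18 (ORC6).

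Among the licensing genes, the helicase loaders CDC6 and CDT1 had the lowest log2 fold changes, and both fell. CDC6 (ENSG00000094804.12, chromosome 17) was at 44.3, 61.3 and 61.6 CPM in untreated NS1 cells and at 17.4, 37.1 and 36.7 CPM with the inducer. Every treated library was below every untreated one, most of all in replicate 1, and the log2 fold change was -0.88 (SE 0.24, edgeR adjusted p = 0.0439). CDT1 (ENSG00000167513.9, chromosome 16) was at 46.3, 57.2 and 58.7 CPM in untreated NS1 cells and at 18.4, 35.9 and 36.2 CPM with the inducer. The groups again did not overlap, with a log2 fold change of -0.85 (SE 0.23, edgeR adjusted p = 0.0476). The call of CDT1 was lost in each single-library omission (edgeR adjusted p from 0.0635 to 0.141) and when only the NS1 groups were fitted (0.087). ORC1 (ENSG00000085840.13, chromosome 1), the subunit of the origin recognition complex whose level swings with the cycle, was at 15.4, 20.5 and 19.4 CPM in untreated NS1 cells and at 6.76, 13.7 and 13.3 CPM with the inducer. Its groups did not overlap either, but the log2 fold change of -0.73 (SE 0.27) did not pass (edgeR adjusted p = 0.139, and 0.000332 with the block within each line). Without replicate 1 ORC1 was at -0.56 (edgeR adjusted p = 0.0128), and without treated replicate 1 alone at -0.45. ORC3 (ENSG00000135336.14, chromosome 6), another subunit of that complex, was at 30.3, 22.97 and 24.04 CPM in untreated NS1 cells and at 25.00, 23.6 and 23.8 CPM with the inducer. Its groups overlapped, and its log2 fold change was -0.10 (SE 0.15, edgeR adjusted p = 0.795), which turned to 0.02 without replicate 1.

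Of the MCM ring 4 of 6 genes passed and of the origin recognition complex none of the 5 listed here did, a difference that was not tested. ORC4, of the same complex, was placed among the other replication genes described below. MCM2, MCM3, MCM4 and MCM7 fell, with log2 fold changes between -0.72 (MCM3) and -0.57 (MCM2). MCM5 and MCM6, of the same ring, were at -0.66 and -0.55 with edgeR adjusted p-values of 0.0904 and 0.0832, and both were lower in 3 of 3 pairs. Geminin, the inhibitor of CDT1, fell by 0.55 on the log2 scale. Within the origin recognition complex ORC1 and ORC6 (-0.67) were as low as the called MCM genes, while ORC2 and ORC5 were both at -0.16. With the block within each line ORC1 and ORC6 were called and ORC2, ORC3 and ORC5 were not.

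In origin firing, MCM10 (ENSG00000065328.16, chromosome 10), which helps to activate the helicase, had the lowest log2 fold change of the 56 genes. It was at 17.2, 17.6 and 15.6 CPM in untreated NS1 cells and at 6.97, 11.1 and 9.13 CPM with the inducer. Each treated library lay below each untreated one, and the log2 fold change was -0.91 (SE 0.21, edgeR adjusted p = 0.025). CDC45 (ENSG00000093009.9, chromosome 22), a core part of the running helicase, was at 23.1, 29.8 and 25.5 CPM in untreated NS1 cells and at 13.7, 16.2 and 17.6 CPM with the inducer. Here replicate 1 was no more affected than replicate 2, and the log2 fold change was -0.73 (SE 0.13, edgeR adjusted p = 0.00799). GINS2 (ENSG00000131153.9, chromosome 16), a subunit of the GINS complex, was at 23.6, 30.2 and 27.8 CPM in untreated NS1 cells and at 11.02, 18.9 and 18.02 CPM with the inducer. The groups did not overlap, and the log2 fold change of -0.78 (SE 0.24) had an edgeR adjusted p of 0.074, or 5.1e-05 with the block within each line and 0.00968 without replicate 1. GINS3 (ENSG00000181938.13, chromosome 16), of the same complex, was at 9.69, 14.4 and 15.9 CPM in untreated NS1 cells and at 5.93, 11.9 and 10.96 CPM with the inducer. Its groups overlapped, since untreated replicate 1 lay below treated replicates 2 and 3, and the log2 fold change was -0.48 (SE 0.25, edgeR adjusted p = 0.293). Blocked within each line, GINS3 had an edgeR adjusted p of 0.00418. Without treated replicate 1 its log2 fold change was -0.21. The other GINS subunits, GINS1 and GINS4, fell by 0.61 and 0.67 on the log2 scale, while CDC7 (-0.57) and DBF4 (-0.56) did not pass.

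At the fork, the largest differences were in primase, a polymerase epsilon subunit and the clamp loader. PRIM1 (ENSG00000198056.14, chromosome 12), the catalytic subunit of primase, was at 15.3, 16.4 and 17.4 CPM in untreated NS1 cells and at 8.37, 9.51 and 9.13 CPM with the inducer. Its 3 treated libraries were nearly level, and the log2 fold change was -0.86 (SE 0.19, edgeR adjusted p = 0.0184). POLE2 (ENSG00000100479.13, chromosome 14), the second subunit of polymerase epsilon and the least counted of the 56 genes, was at 5.93, 4.80 and 5.39 CPM in untreated NS1 cells and at 2.91, 2.18 and 3.82 CPM with the inducer. The groups did not overlap, and the log2 fold change of -0.85 (SE 0.24) had an edgeR adjusted p of 0.0516, or 0.00356 with the block within each line. RFC3 (ENSG00000133119.13, chromosome 13), a small subunit of the clamp loader, was at 29.5, 27.3 and 25.7 CPM in untreated NS1 cells and at 12.2, 18.2 and 15.7 CPM with the inducer. It fell in all pairs, with a log2 fold change of -0.85 (SE 0.18, edgeR adjusted p = 0.0161). RFC1 (ENSG00000035928.16, chromosome 4), the large subunit of that loader, was at 64.8, 61.3 and 63.2 CPM in untreated NS1 cells and at 56.6, 57.6 and 57.1 CPM with the inducer. The groups did not overlap, but the difference was small, at -0.14 (SE 0.08, edgeR adjusted p = 0.36).

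Grouped by complex, polymerase alpha with primase (POLA1, POLA2, PRIM1, PRIM2) fell in 4 of 4 genes. Of polymerase delta, the 3 genes listed here (POLD1, POLD2, POLD3) fell, from -0.63 (POLD3) to -0.46 (POLD2). The delta subunit POLD4, placed among the other replication genes described below, went the other way without passing. POLD4 was at 19.2, 23.4 and 28.1 CPM in untreated NS1 cells and at 27.8, 30.4 and 34.1 CPM with the inducer. Of polymerase epsilon, neither POLE (-0.46) nor POLE2 passed, and POLE3 and POLE4 were placed among the other replication genes. The clamp PCNA was at 204, 249 and 262 CPM in untreated NS1 cells and at 125, 177 and 179 CPM with the inducer. Its treated libraries were all below the untreated ones, with a log2 fold change of -0.57 (SE 0.17, edgeR adjusted p = 0.0581). With the block within each line the edgeR p of PCNA, adjusted, was 8.13e-05. The small clamp loader subunits RFC2, RFC3, RFC4 and RFC5 fell, by 0.52 to 0.85 on the log2 scale. RPA1, RPA2 and RPA3 of the single-strand binding complex did not pass, at -0.33, -0.29 and -0.48, although RPA1 was at 149, 155 and 152 CPM untreated and 121, 121 and 122 CPM treated. The flap nuclease FEN1 and the ligase LIG1 fell by 0.74 and 0.59, and the checkpoint mediator CLSPN was at -0.68 (edgeR adjusted p = 0.0541).

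All 4 nucleotide supply genes fell. RRM1 (ENSG00000167325.15, chromosome 11), the large subunit of ribonucleotide reductase, was at 198, 189 and 197 CPM in untreated NS1 cells and at 119, 122 and 115 CPM with the inducer. The 3 libraries of each group were close together, and the log2 fold change of -0.72 (SE 0.09, edgeR adjusted p = 0.0017) had the lowest p of the 56 genes. RRM2 (ENSG00000171848.15, chromosome 2), its small and S-phase-bound subunit, was at 283, 347 and 344 CPM in untreated NS1 cells and at 149, 227 and 216 CPM with the inducer. Treated and untreated libraries were separate, with a log2 fold change of -0.72 (SE 0.15, edgeR adjusted p = 0.0137). TK1 (ENSG00000167900.12, chromosome 17), the salvage kinase for thymidine, was at 145, 146 and 163 CPM in untreated NS1 cells and at 108, 103 and 111 CPM with the inducer. It had the smallest difference of the 4, at -0.49 (SE 0.12, edgeR adjusted p = 0.0271). TYMS (ENSG00000176890.16, chromosome 18), which makes thymidylate, fell by 0.67 on the log2 scale.

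Among the E2F factors and G1/S regulators, all 9 had log2 fold changes below 0 and 2 of 9 were called lower. E2F7 (ENSG00000165891.16, chromosome 12), a repressor of the E2F family, was at 61.4, 65.9 and 66.8 CPM in untreated NS1 cells and at 32.96, 37.6 and 34.5 CPM with the inducer. The groups lay far apart in each pair, with a log2 fold change of -0.89 (SE 0.14, edgeR adjusted p = 0.00555). CDC25A (ENSG00000164045.11, chromosome 3), the phosphatase that activates CDK2, was at 17.8, 21.7 and 19.7 CPM in untreated NS1 cells and at 7.85, 11.6 and 13.3 CPM with the inducer. Its groups did not overlap, with a log2 fold change of -0.87 (SE 0.22, edgeR adjusted p = 0.0353). E2F2 (ENSG00000007968.7, chromosome 1), an activator, was at 4.81, 6.03 and 4.23 CPM in untreated NS1 cells and at 1.61, 3.49 and 3.40 CPM with the inducer. The groups did not overlap, but the log2 fold change of -0.87 (SE 0.32) had an edgeR adjusted p of 0.136, or 0.00584 with the block within each line. Without treated replicate 1 the value of E2F2 was -0.55. E2F3 (ENSG00000112242.15, chromosome 6), another activator, was at 34.4, 31.2 and 26.4 CPM in untreated NS1 cells and at 26.3, 31.4 and 25.3 CPM with the inducer. Its groups overlapped, at -0.15 (SE 0.15, edgeR adjusted p = 0.642), and without replicate 1 it was at -0.0252.

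The other E2F and G1/S genes did not pass. E2F1 was at -0.58 (edgeR adjusted p = 0.0615), the repressor E2F8 at -0.62, and the cyclins CCNE1 and CCNE2, partners of CDK2, at -0.35 and -0.66. UHRF1, which maintains DNA methylation at replicated DNA, was at -0.69. With the block within each line E2F1, E2F2, E2F8, CCNE2 and UHRF1 were called too, and CCNE1 and E2F3 were not. Across the 48 genes with a promoter entry, those with an E2F-type word had a median of -0.62 (26 genes, 13 called) and those without one a median of -0.64 (22 genes, 14 called).

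**Figure D2:**
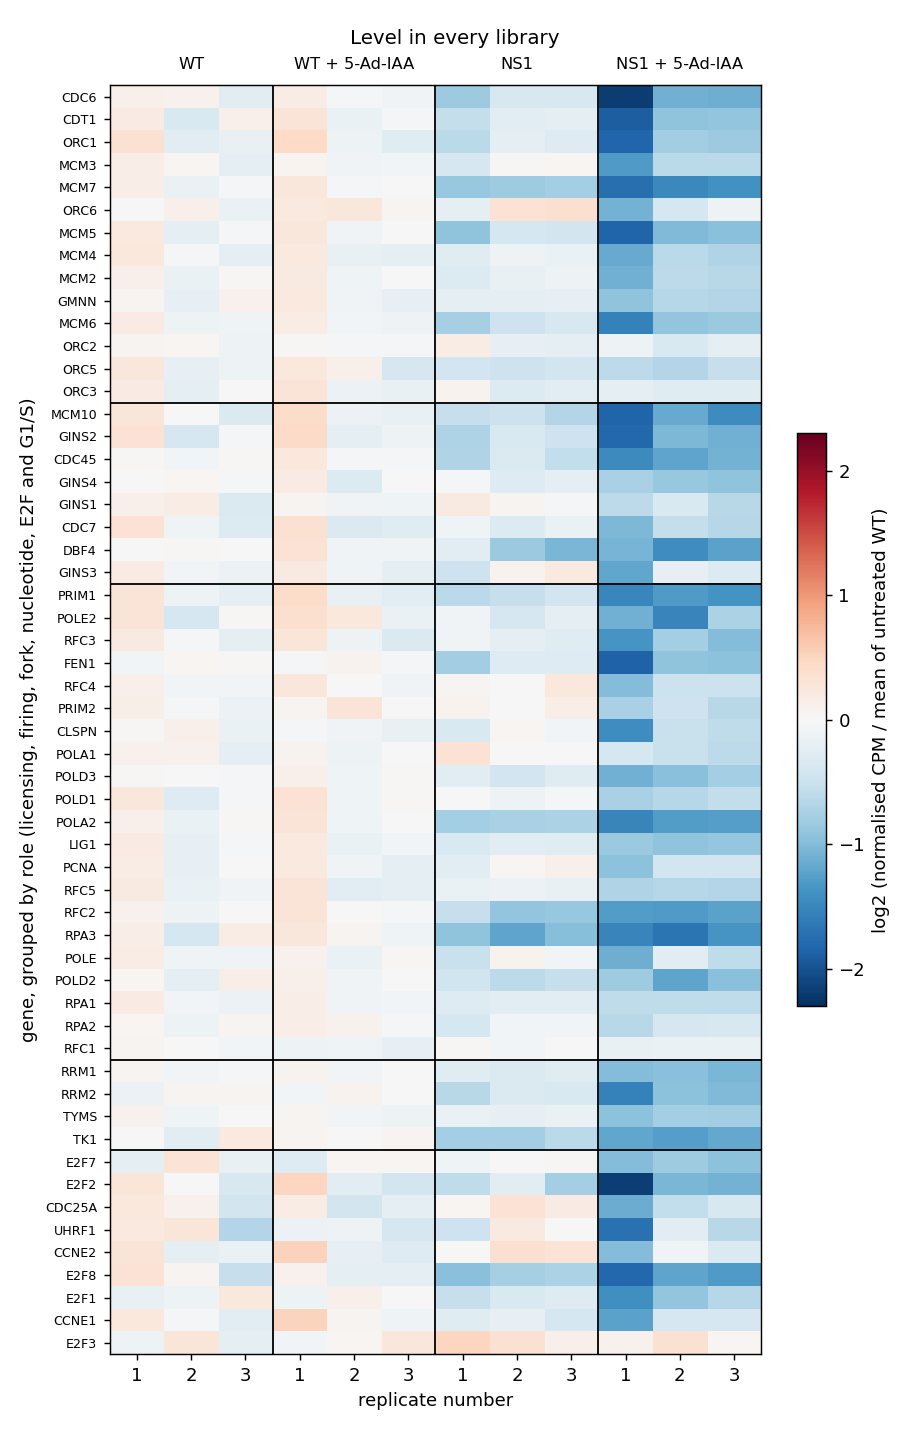
Level of each of the 56 genes (y axis, grouped by role) in each of the 12 libraries (x axis, 4 groups with replicate numbers), as log2 of normalised CPM over the mean of the untreated WT libraries. The treated NS1 columns are the darkest blue, replicate 1 most of all, and the WT columns stay pale with and without the inducer.

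In WT cells none of the 56 genes differed with the inducer beyond the spread between replicates by the test. No gene was called by edgeR (0% of all genes tested), none had an unadjusted p under 0.05 (94 of 17775 genes tested did), and DESeq2 called none. So few genes at that p, below a share of 0.05, mean that the fit without a block may be too strict within a line. This was not tested. With the block within each line 0 of the 56 were called and 0 had an unadjusted p under 0.05. The median log2 fold change was 0.013, with 20 genes below 0 and 36 above. The 3 genes with the lowest p were RFC1, PRIM2 and ORC6. RFC1 was at 66.4, 64.2 and 60.99 CPM in untreated WT cells and 59.1, 59.6 and 55.9 CPM with the inducer. It was the only one of the 56 whose treated libraries all lay below the untreated ones (1.73% of all genes), and its log2 fold change was -0.13 (SE 0.08, edgeR adjusted p = 1). PRIM2 was at 20.9, 18.6 and 17.3 CPM in untreated WT cells and 19.7, 23.1 and 19.00 CPM with the inducer. Its groups overlapped, at 0.12 (SE 0.12, edgeR adjusted p = 1). ORC6 (ENSG00000091651.9, chromosome 16) was at 15.2, 16.4 and 13.5 CPM in untreated WT cells and 17.5, 17.95 and 15.7 CPM with the inducer. It was higher in 3 of 3 pairs but the groups overlapped, at 0.18 (SE 0.21, edgeR adjusted p = 1).

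The summed level of the 56 genes in WT cells was 4384 ± 278 CPM (SD, n = 3 here and below) untreated and 4418 ± 354 CPM with the inducer. In NS1 cells it was 3541 ± 218 CPM untreated and 2335 ± 323 CPM with the inducer. By role, the treated NS1 sums were 688 ± 140 for licensing, 114 ± 12.8 for firing, 857 ± 86.6 for the fork, 495 ± 44.9 for nucleotide supply and 181 ± 40.8 for E2F and G1/S genes, each below its untreated NS1 sum of 1060 ± 94.9, 180.2 ± 4.67, 1236 ± 63.1, 784 ± 40.4 and 281 ± 25.5.

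Set per kilobase of exon (GENCODE 29), the levels of untreated WT cells spanned from PCNA, at 164 ± 20.4 CPM per kb (SD, n = 3), to E2F2, at 1.33 ± 0.294. TK1 (134 ± 22.4) came after PCNA, and the spread of these levels overlapped. RRM2 followed at 82.2 ± 6.43 CPM per kb. Within the MCM ring the levels ran from 53.2 (MCM7) and 51.4 (MCM2), which did not differ beyond their SDs of 5.81 and 4.95, down to 21.7 CPM per kb (MCM6). In treated NS1 cells MCM7 was at 18.4 and MCM2 at 30.3 CPM per kb. Of the E2F genes, E2F1 was at 27.98 CPM per kb in untreated WT cells, E2F7 at 10.5, E2F3 at 4.75 and E2F8 at 2.54.

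Untreated NS1 cells already differed from untreated WT cells in some of these genes. Of the 56, 10 were called, all lower in NS1 (7.05% of all genes called lower, 5.45% higher): MCM7, CDC45, DBF4, POLA2, POLD2, RFC2, RPA3, RRM1, TK1 and E2F8. The 10 genes lay on 4 chromosomes. Of the members on chromosome 7, 5 of 6 were called (all but ORC5), beside 30.7% of the 854 genes tested on that chromosome, whose median log2 difference was -0.41. Of the members on chromosome 11, 3 of 5 were called, on chromosome 17, 1 of 3, and on chromosome 22, 1 of 2. The shares of all tested genes called lower there were 14.2%, 19% and 12.6%, the highest after chromosome 7. The part of chromosome position in these calls was not tested. In the inducer effect within NS1 cells 1.87% of the genes on chromosome 7 were called lower, and their median was 0.0123. Over the 56 genes, the median log2 difference between the untreated lines was -0.22, with 48 genes below 0. In 24 of them all untreated NS1 libraries lay below all untreated WT libraries (16.2% of all genes). MCM7 (ENSG00000166508.17, chromosome 7), the gene with the lowest p here, was at 261, 211 and 228 CPM in WT and 127, 132 and 135 CPM in NS1. The groups were far apart, and the log2 difference was -0.83 (SE 0.12, edgeR adjusted p = 0.00131). RPA3 (ENSG00000106399.11, chromosome 7), the smallest RPA subunit, was at 34.6, 23.3 and 34.99 CPM in WT and 16.3, 13.4 and 15.7 CPM in NS1. Its log2 difference of -1.03 (SE 0.16, edgeR adjusted p = 0.00188) was the lowest of the 56. TK1 was at 249, 208 and 292 CPM in WT and 145, 146 and 163 CPM in NS1. The groups did not overlap, at -0.72 (SE 0.12, edgeR adjusted p = 0.00211).

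These 10 calls rested on the libraries used. MCM7, POLA2, RFC2, RPA3 and TK1 remained called whichever of the 6 libraries was omitted, while RRM1 was called in none of those 6 fits. Without replicate 1, 12 of the 56 were called (10.8% of all genes called lower, 8.85% higher), of which CCNE2 was higher in NS1 (log2 difference 0.52, edgeR adjusted p = 0.0099). Without replicate 2, 2 were called, and without replicate 3 none, with 15 of the 56 at an unadjusted p under 0.05 in each case. The shares of all genes in those fits are not given here. With all 12 libraries 23 of the 56 were at an unadjusted p under 0.05, beside 4948 of the 17775 genes tested. The highest difference of the 56 was that of E2F3, at 0.33 (edgeR adjusted p = 0.181).

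With the inducer in both lines, 48 of the 56 genes were called lower in NS1 cells, beside 14.5% of all genes called lower and 13.6% higher. The median was -0.82, and 50 genes had no overlap between the groups (22.2% of all genes). By role 12 of 14 licensing genes, 7 of 8 firing genes, 20 of 21 fork genes, 4 of 4 nucleotide genes and 5 of 9 E2F and G1/S genes were called lower. MCM7 was at 280.4, 227 and 231 CPM in treated WT and 69.8, 83.5 and 89.02 CPM in treated NS1 cells. This was the lowest log2 difference of the 56, -1.61 (SE 0.13, edgeR adjusted p = 5.47e-06), and left NS1 at 32.8% of the WT mean. RRM1 was at 253, 227 and 239.5 CPM in treated WT and 119, 122 and 115 CPM in treated NS1 cells. The libraries within each group were close, and the log2 difference was -1.02 (SE 0.09, edgeR adjusted p = 8.73e-06). POLA2 (ENSG00000014138.9, chromosome 11), the accessory subunit of polymerase alpha, was at 67.04, 50.96 and 55.02 CPM in treated WT and 19.1, 22.6 and 22.7 CPM in treated NS1 cells. Its log2 difference was -1.43 (SE 0.13, edgeR adjusted p = 9.66e-06). Chromosome 7, on which MCM7 lies, had 38.4% of its genes called lower here, and chromosome 11, with RRM1 and POLA2, 24.9%. The 8 genes not called were ORC2, ORC3, GINS3, RFC1, E2F3, CCNE2, CDC25A and UHRF1, of which E2F3 alone was above 0, at 0.09. Of the 48 calls, 41 were made in each of the 6 single-library omissions, and without replicate 1 the count was 42 (17.1% of all genes called lower).

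**Figure D3:**
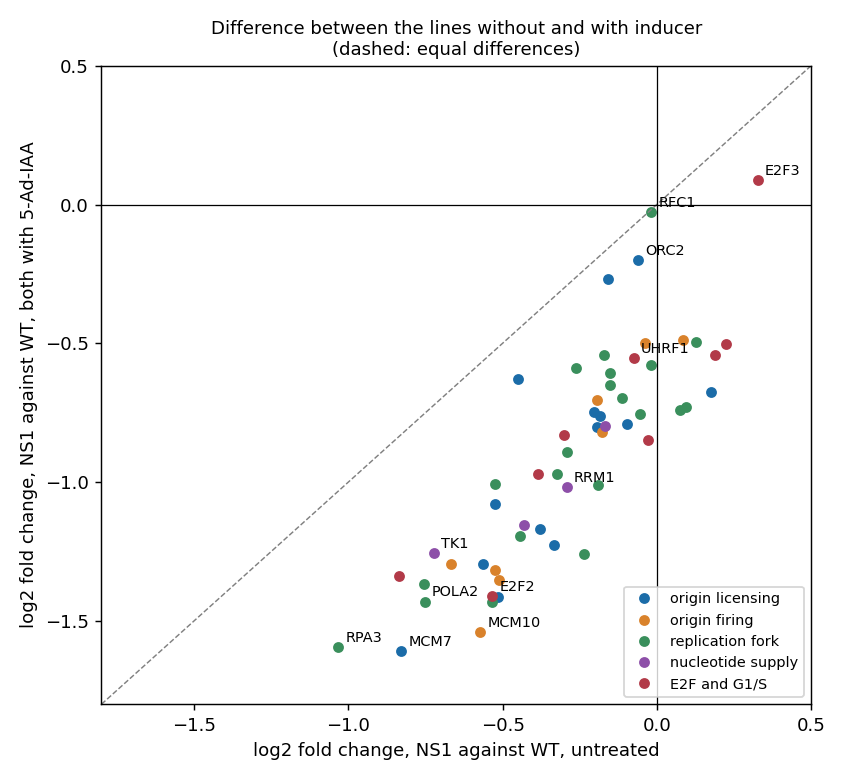
Log2 difference of NS1 against WT for each of the 56 genes, untreated (x axis) and with 5-Ad-IAA in both lines (y axis), coloured by role. All points lie below the dashed line of equal differences, E2F3 and RFC1 closest to the upper right, and MCM7 and RPA3 lie lowest at -1.61 and -1.59.

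The difference between the inducer effects of the lines was tested as an interaction. No gene of the 56 passed in the fit without a block (edgeR), where 0.0113% of all genes were called lower, and 41 of the 56 had an unadjusted p under 0.05 (2196 of all genes). All 56 interaction terms were below 0, with a median of -0.63. The lowest adjusted p-values were those of RRM1, TYMS and PRIM2. RRM1 was at 250.2, 229 and 235 CPM in untreated WT cells and 253, 227 and 239.5 CPM with the inducer, a difference of 0.01, against -0.72 in NS1 cells. Its interaction term was -0.73 (SE 0.12, edgeR adjusted p = 0.0534). TYMS was at 136, 119.7 and 126 CPM in untreated WT cells and 133, 123 and 117 CPM with the inducer, and in NS1 cells at 115, 112 and 114 CPM untreated and 66.5, 74.1 and 73.5 CPM treated. The 2 WT groups overlapped and the treated NS1 libraries lay below all others, with an interaction term of -0.63 (SE 0.13, edgeR adjusted p = 0.0743). PRIM2 (ENSG00000146143.18, chromosome 6), the regulatory subunit of primase, was at 20.1, 19.04 and 20.97 CPM in untreated NS1 cells and at 11.3, 13.6 and 12.2 CPM with the inducer. Its WT difference was 0.12, and the interaction term was -0.82 (SE 0.18, edgeR adjusted p = 0.0813).

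These calls changed with the block, whose use rests on a pairing of libraries within a line that was not tested. With the block within each line 46 passed (7.06% of all genes called lower), and RRM1, TYMS and PRIM2 had edgeR adjusted p-values of 0.000193, 0.000682 and 0.00217. The 10 that did not pass even then were CCNE1, CDC7, E2F3, E2F8, GINS3, ORC2, ORC3, ORC5, RFC1 and UHRF1. DESeq2 without a block called 10, and its share of all genes is not given here. Without replicate 1, 13 passed (1.53% of all genes called lower) with a median of -0.49. Without replicate 2 or replicate 3 none did in edgeR, with 22 and 26 of the 56 at an unadjusted p under 0.05 (share of all genes not given here). The interaction and the 4 other comparisons use the same libraries in different combinations, so their counts are not independent of each other.

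Replicate by replicate, the inducer effect in NS1 cells on the 56 genes had a median of -0.83 in pair 1, -0.53 in pair 2 and -0.54 in pair 3. CDC6 was at -1.35, -0.72 and -0.75 in the 3 pairs, CDT1 at -1.33, -0.67 and -0.70, and E2F2 at -1.58, -0.79 and -0.31. By contrast RRM1 was at -0.73, -0.64 and -0.78 and E2F7 at -0.90, -0.81 and -0.96, with no such gap. The 26 mitosis genes had medians of -0.65, -0.70 and -0.78, so the larger values of pair 1 were not shared by that list. The depth of replicate 1 was the highest of its group in every group, and its part in this result was not tested.

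**Figure D4:**
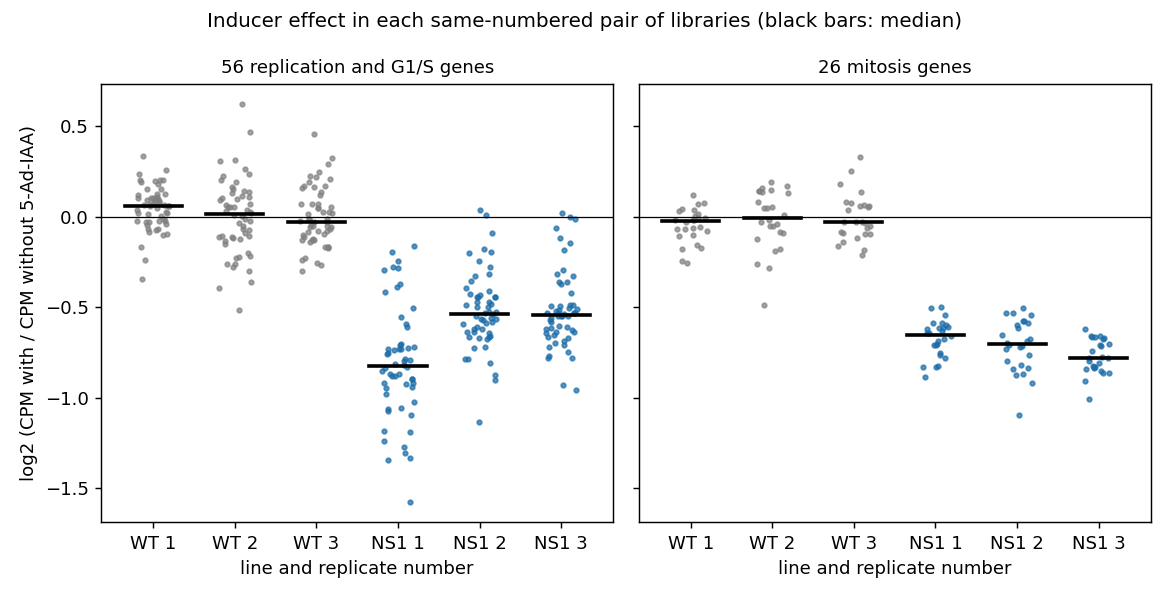
Log2 ratio of CPM with over without 5-Ad-IAA in each same-numbered pair of libraries, for the 56 replication and G1/S genes and for 26 mitosis genes. Each point is a gene and black bars are medians. The NS1 medians of the 56 genes are -0.83, -0.53 and -0.54 and those of the mitosis genes -0.65, -0.70 and -0.78, while WT medians lie near 0.

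Beyond the 56, further lists were compared in the NS1 inducer effect, against the same 3.39% of all genes called lower. Of 40 other replication genes (among them fork protection factors, histone chaperones and nucleotide enzymes) 17 were called lower and none higher, with a median of -0.55. ATAD5, which unloads PCNA, was lowest at -0.82, followed by the S-phase cyclin CCNA2 at -0.80, and both passed. POLD4, a small polymerase delta subunit, was highest at 0.39 and did not pass. With the block within each line 31 of the 40 were called lower and 1 higher. In that fit 12.8% of all genes were called lower and 25.9% in either direction. Of 13 pocket proteins, other E2F factors and MuvB subunits only RBL1 (p107) was called, lower at -0.56, and the list median was -0.23. LIN9, a subunit of the MuvB core, and MYBL2, which binds it, were lowest at -0.78 and -0.70 and did not pass, and RBL2 (p130) was highest at 0.23. With the block within each line 7 of the 13 were called lower and 1 higher. All 26 mitosis genes fell, with a median of -0.71 and a range from -0.89 (NUF2) to -0.58 (KIF20A), PLK1 being at -0.85. In WT cells edgeR called none of these genes with the inducer, and none had an unadjusted p under 0.05. Between untreated lines 3 of 40, 1 of 13 and 6 of 26 were called lower in NS1, in the same order of lists, beside 7.05% of all genes. With the inducer the counts were 27 of 40, 4 of 13 and 26 of 26, beside 14.5% of all genes. Differences between lists were not tested.

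Some of these genes share exon bases with neighbours, and the use of strand in counting is not given in the sources used here. Overlap with another gene's exons (GENCODE 29) touched 23 of the 56 genes and exceeded 10% of exon bases in 8. The largest were TYMS with ENOSF1 on the opposite strand (39.1%), CCNE2 with INTS8 on the opposite strand (37.0%) and POLA2 with a protein-coding gene model on the same strand (35.1%). PRIM1 shared 14.9% with a model on the same strand. Counts of the copy DBF4P1 came to 18.5% of those of DBF4. The values of TYMS, CCNE2, POLA2, PRIM1, MCM2, GINS4, RRM2, GINS3 and DBF4 are therefore less certain than the rest.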

How the data were processed

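The 12 T24 libraries (4 groups of 3) were analysed. The authors deposited whole-number read counts per gene, not normalised, for 60603 genes. STAR 2.7.3a, featureCounts 1.6.4 and hg38 are named in the submitters' processing notes, and the annotation and strand setting are not given in the sources used here. Columns were matched to libraries by name. From these counts, edgeR 4.0.16 in R 4.3.3 kept 17775 genes (filterByExpr), scaled libraries by TMM, fitted group means to the 12 libraries together (quasi-likelihood), and tested 5 contrasts, two-sided, with Benjamini-Hochberg adjustment over all genes and a threshold of 0.05. The standard error is the log2 fold change over the square root of F. DESeq2 1.42.0, other scalings and filters, replicate blocks and left-out libraries were alternatives. The edgeR fit without a block was run on simulated counts drawn independently for each library, with no shared replicate effect. The other fits were not checked in this way.

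The 56 genes, the lists and the rules were chosen with earlier results of these data known. Values in every library are given by rule for the 3 lowest and the highest gene of each role in the NS1 inducer effect (in the role of 4 genes, the lowest 2 and the highest), and for the 3 with the lowest p in each other comparison. PCNA and RPA1, and the shares by chromosome (positions from GENCODE 29), were added after values were seen. Of the other lists the lowest 2 and the highest are named, and RBL1 as the only call of its list in the fit without a block.

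Replicate numbers come from the sample titles. Deviations from group means of same-numbered libraries correlated at 0.713, 0.386 and 0.384 in NS1 and 0.752, 0.385 and 0.256 in WT. Deviations from a mean of 3 libraries sum to 0, and differently numbered libraries were not compared. Pairing of all the numbers was therefore not told apart from a difference of replicate 1 shared by both groups of a line. No libraries looked like duplicates (lowest chi-square per degree of freedom 3.03). Depth limits the precision of genes with few counts, such as POLE2 and E2F2.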

Additional observations from a re-analysis of the deposited data

Results flagged for a closer look

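The inducer effect on the 56 genes differed between the lines by a test of the difference itself, in a fit with a block. In the interaction of genotype and inducer with a block for each replicate number within each line, 46 of the 56 genes passed (edgeR adjusted p under 0.05), all lower in NS1 cells, beside 7.06% of all genes called lower. None passed without a block, where 0.0113% of all genes were called lower. With a block for the number alone 16 did, a fit whose share of all genes is not given here. RRM1 had an interaction term of -0.73, with an edgeR adjusted p of 0.0534 without the block and 0.000193 with it.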

How the results depend on the processing

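The inducer effect in NS1 called 30 of the 56 genes, and leaving out replicates gave 0 to 37 (0 without replicate 2 or 3, 10 to 18 without 1 library). The replicate block gave 38 and the block within each line 50, DESeq2 39, no low-count filter 45, while the share of all genes called in either direction was 13.6%, 25.9%, 8.38% and 5.28% in turn. For the untreated lines the count was 10 (7.05% of all genes called lower), with 17 under no low-count filter, 17 with the replicate block, and 0 to 12 when replicates were left out. For the interaction it was 0 (0.0113% called lower), with 10 by DESeq2, 1 with at least 10 counts in every library and 21 under no low-count filter. It was 16 with the replicate block, 46 with the block within each line (7.06% called lower), and 0 to 13 when replicates were left out. For the treated lines the count of 48 (14.5% called lower) ran from 37 to 42 when 1 replicate number was left out, and was 48 with the replicate block. Beyond these and the fits without replicate 1 given above, the share of all genes is not given here. The other counts therefore have no background beside them. The WT inducer count was 0 in every alternative run. Between lines, same-numbered libraries correlated at 0.136, 0.0719 and 0.190 untreated and 0.153, 0.120 and 0.00601 treated, each below every value within a line. Only ORC3 changed sign among genes with values in every library, in the NS1 inducer effect, from -0.17 without untreated NS1 replicate 2 to 0.0394 without untreated NS1 replicate 1 and 0.0154 without replicate 1. Of the other values of such genes 442 kept direction and call, 31 gained and 61 lost the call. The E2F-type word in its 2 common forms was in 24 genes in place of 26. The causes were not tested.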
